A study of Mus musculus with 6 samples.

Results

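Adipocyte genes were followed in tongue tissue of C57BL/6J mice, whose age is not given for the arrays. They were represented by 10 genes chosen by name, namely Pparg, Adipoq, Plin1, Lep, Cidec, Fabp4, Retn, Cfd, Lpl and Scd1. Of these, 8 had a probe set annotated to them alone, out of 18193 genes measured in this way, and Plin1 and Cfd were not analysed here. The treated group comprised 3 mice whose drink held 100 μg/ml of 4-nitroquinoline 1-oxide (4NQO), a carcinogen that forms bulky adducts on DNA, over 8 weeks, and the control group 3 non-treated mice. RNA of each tongue was hybridized to 1 Affymetrix mouse array. Each value is a log2 signal of a probe set, so that a difference of 1 is a doubling of the signal, and the main probe set of a gene was the one with the highest mean over the 6 arrays. A tongue holds squamous epithelium, skeletal muscle, vessels, nerves, small salivary glands and some fat between the muscle fibres. Fewer fat cells cannot be told apart from less RNA per fat cell. The median log2 signal of all probe sets lay between 4.45 and 4.55 on the 4NQO arrays and between 4.57 and 4.60 on the control arrays, and a signal below it is not shown to be above background.

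Fat cells store triglyceride in a single large droplet and release hormones. PPARγ, the product of Pparg, is the nuclear receptor that drives their formation and switches on many of their other genes. Adipoq, Lep and Retn encode the secreted hormones adiponectin, leptin and resistin. Cidec and Plin1 coat and enlarge the lipid droplet, Fabp4 carries fatty acids within the cell, Lpl frees fatty acids from circulating lipoproteins, Scd1 desaturates newly made fatty acids and Cfd encodes the secreted protease adipsin. Several of them are also made elsewhere: Lpl by skeletal muscle and macrophages, Fabp4 by capillary endothelium and macrophages, and Scd1 by sebaceous glands.

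The 4 members with the most similar pattern across the tongues were Adipoq, Retn, Cidec and Pparg, and a promoter window of each is shown so that the stretch of DNA in front of these genes can be compared. The windows run 5′ to 3′ on the gene's strand from 250 bases before to 50 bases after a start site in the RefSeq annotation of GRCm38.p6. Capitals mark matches on either strand to CCAAT, the letters of the CCAAT box, or to TTGCNNAA, a short form of the sequence bound by C/EBP factors. Of Pparg the most downstream of 3 annotated starts is shown, and of Cidec the more downstream of 2.
Adipoq, chr16:23146286-23146585, plus strand: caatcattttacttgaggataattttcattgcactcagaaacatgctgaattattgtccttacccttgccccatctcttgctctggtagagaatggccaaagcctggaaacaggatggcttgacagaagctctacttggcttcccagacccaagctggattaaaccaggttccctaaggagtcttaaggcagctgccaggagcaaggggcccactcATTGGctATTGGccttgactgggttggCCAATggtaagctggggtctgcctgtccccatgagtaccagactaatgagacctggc
Retn, chr8:3655520-3655819, plus strand: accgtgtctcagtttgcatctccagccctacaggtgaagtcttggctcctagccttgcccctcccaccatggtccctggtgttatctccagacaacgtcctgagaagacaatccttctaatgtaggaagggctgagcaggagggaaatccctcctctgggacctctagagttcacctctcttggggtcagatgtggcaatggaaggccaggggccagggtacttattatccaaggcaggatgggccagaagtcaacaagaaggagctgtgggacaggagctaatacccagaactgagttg
Cidec, chr6:113434715-113435014, minus strand: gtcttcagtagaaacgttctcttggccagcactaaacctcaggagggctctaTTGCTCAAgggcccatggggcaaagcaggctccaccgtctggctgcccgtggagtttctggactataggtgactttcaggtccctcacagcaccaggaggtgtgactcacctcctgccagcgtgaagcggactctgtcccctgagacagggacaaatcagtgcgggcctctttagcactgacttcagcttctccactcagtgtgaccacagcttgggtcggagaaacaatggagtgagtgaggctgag
Pparg, chr6:115421816-115422115, plus strand: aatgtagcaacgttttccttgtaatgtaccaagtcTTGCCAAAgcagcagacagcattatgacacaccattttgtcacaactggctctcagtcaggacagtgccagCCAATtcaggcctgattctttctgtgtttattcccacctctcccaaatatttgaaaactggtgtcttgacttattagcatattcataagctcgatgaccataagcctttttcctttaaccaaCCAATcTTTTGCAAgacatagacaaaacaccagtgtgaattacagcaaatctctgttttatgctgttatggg
The Adipoq window held 3 CCAAT matches, which begin 34, 27 and 7 bases before the start. The Pparg window held 2 CCAAT matches and 2 TTGCNNAA matches, the Cidec window 1 TTGCNNAA match and the Retn window none of either. For Cidec and Pparg the windows shown are those with the most matches. The Cidec window not shown held 0 of either. Of the Pparg windows not shown, one held 0 of either and the other 1 CCAAT and 0 TTGCNNAA matches. Over all 32851 windows of this length, 37.4% held CCAAT and 10.8% held TTGCNNAA, so that a match alone is common. The table held windows for 7 of the 10 members. A match describes the letters and is not a binding site.

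No adipocyte gene passed the test between 4NQO and control tongue, whereas Adipoq, Retn and Cidec differed widely between tongues of one group. Of the 8 measured members, 6 had a higher and 2 a lower mean in 4NQO tongue, 0 passed an adjusted p of 0.05 in limma, 0 had an unadjusted p under 0.05, and 0 were called by SAM or by the methods' t-test. Over all genes, 0.132% passed the adjusted p in limma and 10.4% the unadjusted one. None of the 8 had groups that did not overlap, against 16.8% of all genes. With only 8 genes, counts of 0 lie near these shares and do not set the members apart. The median log2 difference of the members, 4NQO minus control, was 0.20, beside -0.01 over all genes. The differences had wide intervals for the genes that varied most, and those of Adipoq, Retn and Cidec reach beyond a doubling in either direction.

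Adipoq, adiponectin, is made almost only by fat cells and varied most among the members. Its log2 signal was 8.22, 3.37 and 7.92 in 4NQO tongues 1, 2 and 3, against 3.88, 7.86 and 4.23 in control tongues 1, 2 and 3. It was high in 4NQO 1, 4NQO 3 and control 2 and below the array median in the other 3, so that both groups held high and low tongues. The means were 6.50 ± 2.72 in 4NQO and 5.32 ± 2.20 in control tongue (SD, n = 3 each). The difference of 1.18 had a standard error of 1.44 and a 95% interval of -2.15 to 4.51 (adjusted p = 0.804 from limma). Leaving out 1 array moved it to between 0.32, without 4NQO 1, and 2.75, without 4NQO 2. Adipoq spanned 4.85 on the log2 scale over the 6 arrays, and only 40 of 18193 genes spanned more, where the median gene spanned 0.56. Since the low signals lie below the array medians, no linear fold is given.

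Retn encodes resistin, which in mice comes from fat cells. Its log2 signal was 7.23, 4.18 and 6.55 in 4NQO tongues 1, 2 and 3, against 4.48, 6.77 and 4.64 in control tongues 1, 2 and 3. The same 3 tongues as for Adipoq were high, although here control 3 lay just above its array median. The difference was 0.69 with a 95% interval of -1.28 to 2.66 (adjusted p = 0.807 from limma), and it was 0.070 without 4NQO 1 and 1.60 without 4NQO 2. Cidec, which lets lipid droplets fuse and grow, had 6.46, 3.52 and 5.70 in 4NQO tongues, against 3.97, 6.46 and 3.99 in control tongues. Control 2 and 4NQO 1 were level in this gene, and the 3 low tongues again lay below their array medians. The difference was 0.42, with a 95% interval of -1.59 to 2.43 (adjusted p = 0.895 from limma).

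Pparg ordered the 6 tongues exactly as Adipoq did but over a narrower range. Its log2 signal was 6.97, 6.00 and 6.88 in 4NQO tongues, against 6.09, 6.81 and 6.17 in control tongues, all of them above the array medians. The difference was 0.26, with a standard error of 0.31 and a 95% interval of -0.45 to 0.96 (adjusted p = 0.795 from limma). It was 0.080 without 4NQO 1 and 0.57 without 4NQO 2. The gap between the third and the fourth tongue in this order was 0.64 for Pparg, and it was 3.62 for Adipoq, 1.92 for Retn and 1.71 for Cidec.

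**Figure D1:**
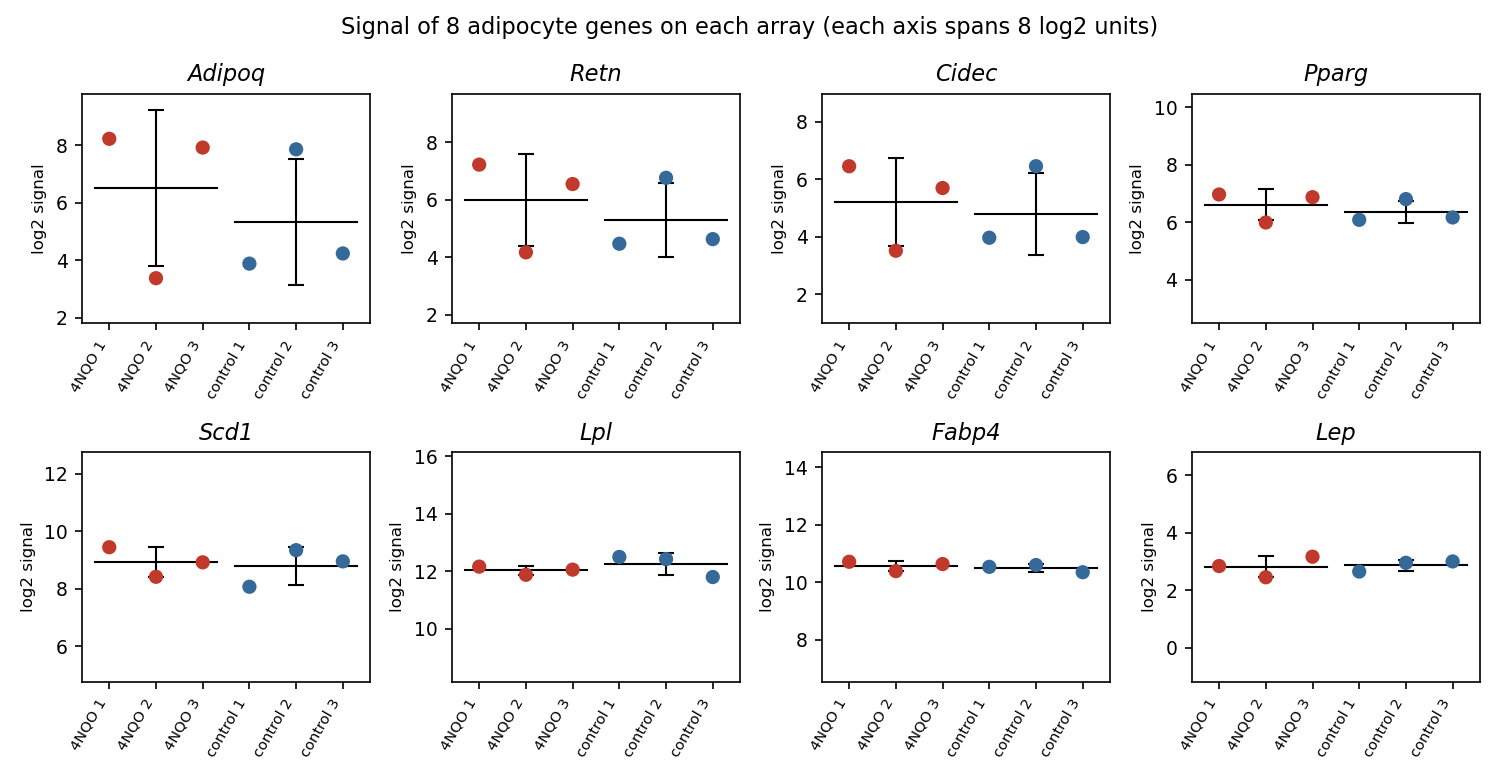
Log2 signal (y axis, 8 units in each panel) of the 8 measured adipocyte genes on each array (x axis), with 1 point per tongue, red for 4NQO and blue for control, a horizontal line for the group mean and an error bar for the SD. Adipoq, Retn, Cidec and Pparg are high in 4NQO 1, 4NQO 3 and control 2, and no gene separates the groups.

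In their main probe sets Fabp4 and Lpl, which other cells of the tongue also make, were bright on all arrays. Both spanned less than Adipoq, Retn and Cidec, although the range of Lpl, 0.70, was wider than that of 65.6% of all genes. Fabp4 had 10.72, 10.40 and 10.64 in 4NQO tongues, against 10.54, 10.61 and 10.36 in control tongues, a range of 0.36 that 20.2% of all genes undercut. Its 3 highest tongues were still those of Adipoq, but the gap to the next tongue was only 0.06. The difference was 0.08 with a 95% interval of -0.22 to 0.39 (adjusted p = 0.858 from limma). The other 3 probe sets of Fabp4 were dimmer and did not all give the same sign. A difference of -0.57 was found in 2 of them and of 0.22 in the other, so that Fabp4 has no settled direction. Over all 34945 probe sets of 1 gene, 0.0601% passed in limma, and 0 of the members' did. In one of the 2, the signal was 6.37, 7.07 and 7.38 in 4NQO tongues, against 7.54, 8.04 and 6.95 in control tongues, an order unlike that of Adipoq. In the probe set with 0.22 it was 5.26, 4.91 and 5.04 in 4NQO tongues, against 4.82, 4.99 and 4.74 in control tongues, with the same 3 highest tongues as Adipoq.

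Lpl, lipoprotein lipase, had 12.16, 11.88 and 12.06 in 4NQO tongues, against 12.50, 12.42 and 11.80 in control tongues. Control 1, a tongue with little Adipoq, gave the highest signal of Lpl, and control 3 the lowest. The difference was -0.21 with a 95% interval of -0.65 to 0.23 (adjusted p = 0.725 from limma), and the other probe set gave -0.29. Scd1, stearoyl-CoA desaturase, had 9.45, 8.42 and 8.92 in 4NQO tongues, against 8.07, 9.34 and 8.95 in control tongues. It was highest in 4NQO 1 and control 2, and control 3 lay level with 4NQO 3, so that it followed Adipoq only in part. The difference was 0.14 with a 95% interval of -0.69 to 0.97 (adjusted p = 0.916 from limma). A second, dim probe set gave 0.32 with the same 3 highest tongues as Adipoq. Its signals, 2.67 to 3.66, lay below every array median and were not shown to be above background.

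Lep, leptin, was the only member below the median of every array. Its log2 signal was 2.84, 2.45 and 3.17 in 4NQO tongues, against 2.65, 2.96 and 3.00 in control tongues, and was therefore not shown to be above background in any tongue. The difference of -0.05 (95% interval -0.49 to 0.39, adjusted p = 0.947 from limma) says nothing about leptin mRNA at this signal. The label of fat cells is thus borne out by Adipoq, Retn and Cidec in 3 of the 6 tongues, but not by Lep. Pparg lay above the median of every array, also where Adipoq and Cidec lay below it, so its signal alone does not bear out the label. Nor does that of Fabp4, Lpl and Scd1, which other cells also make.

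**Figure D2:**
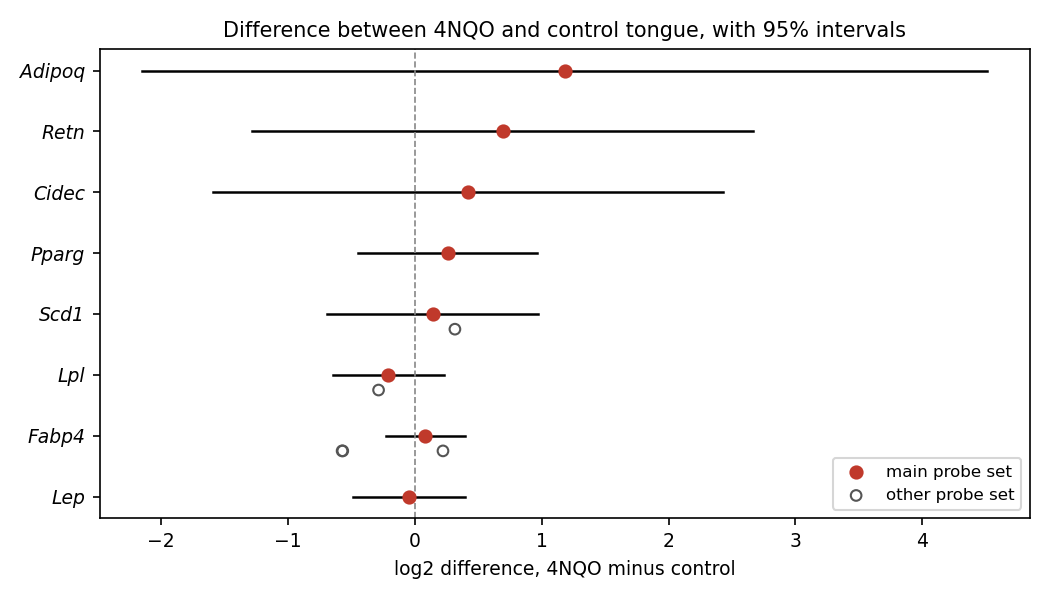
Log2 difference between 4NQO and control tongue (x axis) for each measured adipocyte gene (y axis), with a filled point and a 95% interval for the main probe set and open points for the other probe sets (2 of those of Fabp4 coincide at -0.57). Every interval includes 0, and that of Adipoq runs from -2.15 to 4.51.

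Differences between members within an array, in which a shift common to both genes cancels, also did not separate the groups. Scd1 minus Adipoq averaged 2.42 ± 2.27 in 4NQO and 3.47 ± 1.73 in control tongue (SD, n = 3 each), a change of -1.04 (two-sided exact permutation p = 0.7). Lpl minus Adipoq changed by -1.39 (exact permutation p = 0.5). For Lep minus Adipoq, with Lep near background, the change was -1.23 (exact permutation p = 0.7). Adipoq spanned 4.85 over the 6 arrays, against 1.38 for Scd1, 0.71 for Lep and 0.70 for Lpl. All of these differences are therefore mostly Adipoq with its sign turned and add little to its own result. With 3 against 3 tongues this test cannot give a p below 0.1.

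Genes outside the 10 that followed Adipoq most closely were sought by Pearson's r with its signal over the 6 arrays, among 1724 genes with a mean log2 signal of at least 6 and a range of at least 1. The first of them was Hp, haptoglobin, a plasma protein that fat tissue also makes, with r = 0.98. Its log2 signal was 8.68, 4.53 and 7.44 in 4NQO tongues, against 4.72, 7.88 and 5.19 in control tongues. Fmod, the collagen-binding proteoglycan fibromodulin, came second with r = 0.98 and had 8.73, 6.84 and 8.47 in 4NQO tongues, against 6.87, 8.78 and 7.44 in control tongues. Car3, carbonic anhydrase 3, abundant in fat cells and in slow muscle, came sixth with r = 0.94 and a wider range. It had 9.92, 5.21 and 8.68 in 4NQO tongues, against 7.19, 9.25 and 5.92 in control tongues. Wtip, Kcnc4, Ncln, Plvap, an endothelial protein of fenestrated vessels, and Sf3a2, a splicing factor, made up the rest of the first 8, with r between 0.92 and 0.96. Among the members, r with Adipoq was 1.00 for Pparg, 0.99 for Retn, 0.98 for Cidec, 0.86 for Fabp4, 0.82 for Scd1, 0.67 for Lep and 0.29 for Lpl. These values describe 6 arrays that fall into 3 high and 3 low ones, so that r mainly says on which side each tongue lies, and genes measured on one array share its RNA. None of the 8 genes passed limma's test between the groups. This follows from how they were picked, since a gene that follows Adipoq has high tongues in both groups.

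**Figure D3:**
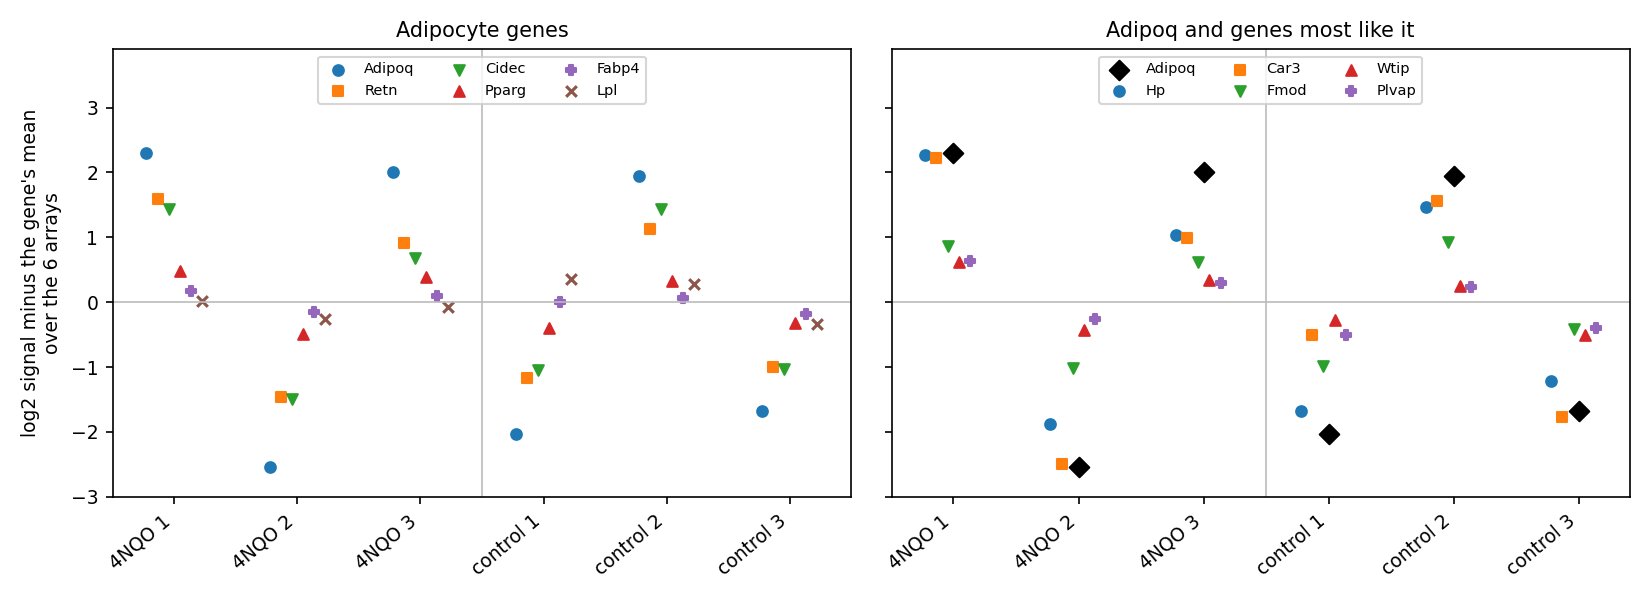
Log2 signal of each gene minus its mean over the 6 arrays (y axis) on each array (x axis, 4NQO left of the line and control right of it), for 6 adipocyte genes on the left and for Adipoq with 5 of the genes most like it on the right. Adipoq, Retn, Cidec, Hp and Fmod lie above 0 in 4NQO 1, 4NQO 3 and control 2 and below 0 in the other tongues, while Fabp4 stays close to 0.

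RNA quality and the share of other tissues were measured beside this pattern. The Gapdh control probe sets compare the 3′ with the 5′ end of a transcript, and a large difference marks shorter RNA or labelled product. It was, on the log2 scale, 0.47, 1.07 and 0.33 in 4NQO tongues, against 0.09, 0.20 and 1.67 in control tongues. The largest differences were those of 4NQO 2 and control 3, both low in Adipoq. They are called the arrays of weakest 5′ Gapdh signal below, which means the 5′ signal relative to the 3′ signal. The actin control probe sets gave another order, with 1.12, 0.95 and 0.55 in 4NQO tongues, against 0.75, 0.83 and 1.01 in control tongues. By actin the largest difference was that of 4NQO 1, the tongue highest in Adipoq. Control 1, also low in Adipoq, had the smallest difference in Gapdh. Without 4NQO 2 and control 3, which were left out by Gapdh alone, the difference in Adipoq was 2.20 (adjusted p = 0.596 from limma) and no member passed the test. Groups of 2 then did not overlap for 4 members, higher in 4NQO for Pparg, Adipoq and Fabp4 and lower for Lpl, where 41.6% of all genes did not overlap.

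Of the marker lists of other cells, none had its 3 highest tongues in 4NQO 1, 4NQO 3 and control 2, and the sebaceous gland list had its 3 lowest there. This is 1 of 20 possible sets of 3 tongues, so that its absence from a few lists says little. The mean log2 signal of 12 skeletal muscle markers lay between 11.7 and 12.4 in 4NQO tongues, against 11.8 to 12.6 in control tongues, and was lowest in 4NQO 2 and control 3. That of 9 endothelial markers lay between 8.01 and 8.34 in 4NQO tongues, against 8.04 to 8.52 in control tongues. For 9 macrophage markers it was 7.71 to 8.88 in 4NQO tongues and 7.57 to 8.47 in control tongues, lowest in 4NQO 1 and control 2 but highest in 4NQO 3, although Adipoq was high in all of these. For 7 genes of fat cell progenitors it was 7.61 to 8.15 in 4NQO tongues and 7.84 to 8.21 in control tongues, and for 7 tongue epithelium markers 12.4 to 12.8 in 4NQO tongues and 12.5 to 12.6 in control tongues. The mean of the 4 measured sebaceous gland markers was 4.34, 4.75 and 4.19 in 4NQO tongues, against 4.57, 4.24 and 4.97 in control tongues, near the array medians. That of 8 salivary gland markers lay between 4.50 and 6.49 in 4NQO tongues, against 4.66 to 5.78 in control tongues. None of the genes in these lists passed an adjusted p of 0.05 in limma, and 2, both of tongue epithelium and both higher, had an unadjusted p under 0.05. The part of these tissues in the level of the adipocyte genes was not tested.

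The wider machinery of fat metabolism was followed through 7 further lists with 75 measured genes, which were written with earlier results of these data known. Of these, 0 rose and 1, Ucp3, fell at an adjusted p under 0.05 in limma, where 0.126% of all genes rose and 0.0055% fell. Before adjustment limma put 2 higher and 10 lower at the same threshold, beside 6.68% of all genes higher and 3.74% lower. From each list up to 3 genes are named below for the smallest p, a choice that favours groups without overlap. Over all genes, 16.8% had groups that did not overlap.

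Among 12 transcription factors of fat cell formation, none passed the adjusted p, 1 was lower at an unadjusted p under 0.05 in limma and the median difference was -0.23. That gene was Klf15, a factor of fat cells and muscle, with 8.65, 8.92 and 9.12 in 4NQO tongues, against 9.13, 9.53 and 9.51 in control tongues (adjusted p = 0.391 from limma). Its groups did not overlap, though 4NQO 3 and control 1 were nearly level. Cebpa, the partner of PPARγ in fat cells, had a difference of 0.59 with a standard error of 0.38, and Nr1h3, the oxysterol receptor LXRα, one of -0.30.

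Genes of the lipid droplet and of lipolysis had a median difference of -0.26 over 12 genes, none of which passed the adjusted p and 2 of which were lower at an unadjusted p under 0.05 in limma. Plin4, a droplet coat protein of fat cells and muscle, had 10.47, 10.28 and 10.63 in 4NQO tongues, against 10.72, 11.37 and 11.13 in control tongues (difference -0.61, adjusted p = 0.296 from limma). Plin5, the droplet protein of oxidative muscle, had 10.003, 9.48 and 9.79 in 4NQO tongues, against 10.43, 10.53 and 10.10 in control tongues (difference -0.60, adjusted p = 0.290 from limma). In both genes every 4NQO tongue lay below every control tongue. Plin4 was ordered as Adipoq among the control tongues and Plin5 among the 4NQO tongues, and neither in both groups. Plin2, the general droplet coat protein, had a difference of -0.41. Lipe, hormone-sensitive lipase, was chosen after its values were seen and had 7.45, 5.55 and 6.88 in 4NQO tongues, against 7.27, 7.99 and 6.27 in control tongues. It was lowest in 4NQO 2 and control 3, but high in control 1, where Adipoq was low.

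Fatty acid and triglyceride synthesis had a median difference of -0.08 over 15 genes, none of which passed the adjusted p and 1 of which was higher at an unadjusted p under 0.05 in limma. Scd2, a desaturase like Scd1 but not specific to fat cells, had 9.65, 9.08 and 9.15 in 4NQO tongues, against 8.19, 8.64 and 8.71 in control tongues (difference 0.78, adjusted p = 0.241 from limma). All 4NQO tongues were above all control tongues in this probe set of Scd2, which was not so for Scd1. With the Scd2 probe set of largest spread the difference was 0.080 (adjusted p = 0.973 from limma). Acly, which supplies acetyl-CoA, had a difference of 0.33, and Lpin1, a phosphatidate phosphatase, one of -0.29. Thrsp, a lipogenic regulator chosen after its values were seen, had 8.33, 6.58 and 8.16 in 4NQO tongues, against 8.00, 8.66 and 7.82 in control tongues, and was low in 4NQO 2 alone.

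Among 9 genes of fatty acid uptake and of the control of lipoprotein lipase, none passed the adjusted p, while before adjustment 1 passed as higher and 3 as lower in limma. Fabp5, the fatty acid carrier of keratinocytes, had 13.12, 13.03 and 13.02 in 4NQO tongues, against 12.43, 12.10 and 12.13 in control tongues, with no overlap (difference 0.83, standard error 0.11, adjusted p = 0.0522 from limma). It passed with centred arrays, with dim genes left out, with robust eBayes and without control 1 (adjusted p = 0.0387 to 0.0484 from limma), and not under the other 12 alternatives (0.0539 to 0.233). Gpihbp1, which anchors lipoprotein lipase on capillaries, had 8.58, 7.37 and 8.61 in 4NQO tongues, against 9.10, 9.50 and 8.84 in control tongues (difference -0.95, adjusted p = 0.395 from limma). Vldlr, a lipoprotein receptor that works with lipoprotein lipase, had a difference of -0.89 (adjusted p = 0.314 from limma). The median of the list was -0.24.

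The list of adipokines, hormone receptors and insulin response had a median difference of -0.15 over 12 genes, and 0 passed the adjusted or the unadjusted p in limma. Agt, angiotensinogen, had a difference of -0.70, Retnla, a resistin-like protein of macrophages and fat, one of -0.71, and Insr, the insulin receptor, one of -0.16. Single arrays weighed on both larger values: Agt had -0.17 without 4NQO 2 and Retnla -0.18 without 4NQO 1. In 8 genes of brown fat the median was -0.13, and 0 passed the adjusted or the unadjusted p in limma. Ucp1, the uncoupling protein that defines brown fat, had log2 signals of 2.58 to 2.93 in 4NQO tongues and 2.94 to 3.32 in control tongues, below all array medians. Dio2, a deiodinase, had a difference of 0.50, and Cox8b, a cytochrome oxidase subunit that muscle shares with brown fat, one of -0.15.

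Of the 7 lists, the muscle genes induced by fasting had the median farthest from 0. All 7 measured genes had a lower mean in 4NQO tongue, with a median difference of -0.64. Of the 12 skeletal muscle markers 11 were also lower, with a median of -0.15, and of all 18193 genes 9514 were lower. Of the 7 genes, 1 passed the adjusted p and 4 the unadjusted p in limma. Ucp3, an uncoupling protein of muscle mitochondria, had 7.55, 7.76 and 7.73 in 4NQO tongues, against 8.92, 9.34 and 9.23 in control tongues (difference -1.48, standard error 0.16, adjusted p = 0.0174 from limma). It did not pass when any single array other than control 1 was left out (adjusted p = 0.0530 to 0.104 from limma), while its difference in those fits stayed between -1.52 and -1.39. Pdk4, a kinase that spares glucose, had 10.37, 10.60 and 10.36 in 4NQO tongues, against 11.34, 11.66 and 11.31 in control tongues (difference -0.995, adjusted p = 0.0522 from limma). It passed with dim genes left out (adjusted p = 0.0441 from limma) and with robust eBayes (adjusted p = 0.0387), and not under the other 14 alternatives (0.0539 to 0.182). Fbxo32 and Trim63, muscle ubiquitin ligases, had differences of -0.92 and -0.48, Foxo1, which drives both, -0.64, Cpt1a, which brings fatty acids into mitochondria, -0.25, and Acadm, a dehydrogenase of fatty acid oxidation, -0.21. Within the groups Ucp3 and Pdk4 moved little: 4NQO 2, lowest in Adipoq, was highest among the 4NQO tongues in both, whereas control 2, highest in Adipoq among the controls, was highest among them in both. Ucp3 and Pdk4 were known to be lower in these data when the list was written, so their direction here is not independent evidence.

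**Figure D4:**
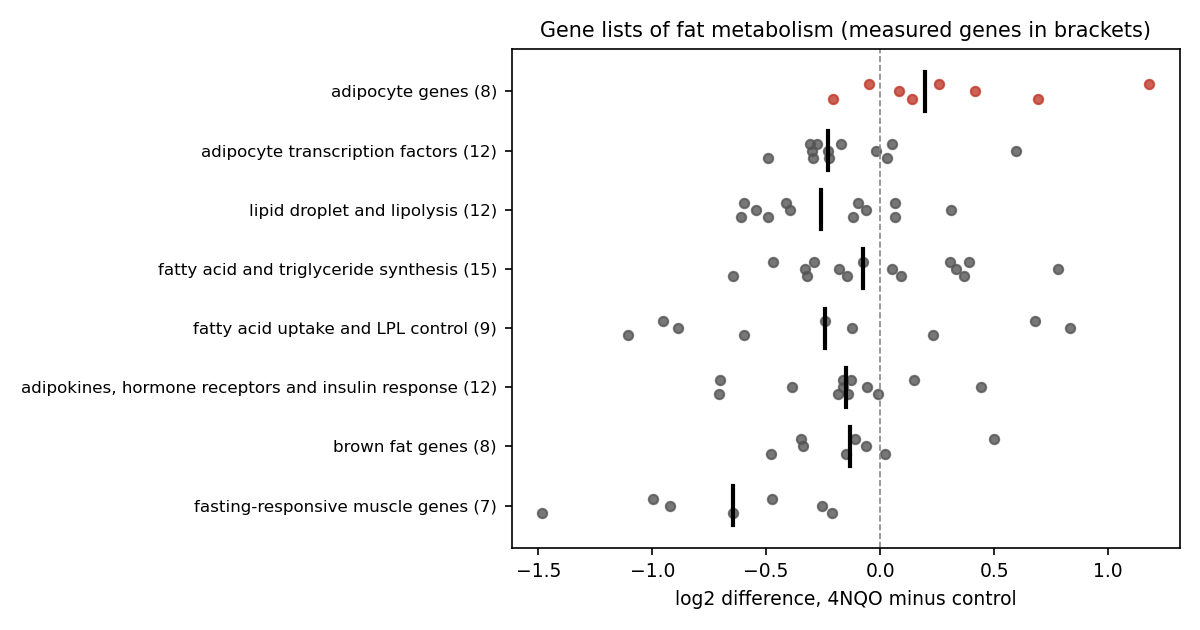
Log2 difference between 4NQO and control tongue (x axis) for each measured gene of the adipocyte genes, in red, and of 7 lists of fat metabolism, in grey, with a vertical bar for the median of each list and the number of measured genes in brackets. The medians are 0.20 for the adipocyte genes and -0.64 for the fasting-responsive muscle genes, and the other 6 lie between -0.26 and -0.08.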

How the data were processed

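RNA of single tongues was labelled and hybridized to Affymetrix mouse arrays. Quality filtering and normalization were done by the authors with Bioconductor packages in R, and each deposited value is a log2 signal of a probe set. How the arrays were normalized was not stated in the methods. Of 45101 probe sets, 34945 were annotated to 1 gene and gave 18193 genes, and the rest were not tested. Dim genes were kept. limma 3.58.1 in R 4.3.3 (lmFit, eBayes with an intensity trend) compared 4NQO with control tongues over all genes, with Benjamini-Hochberg adjustment at 0.05. SAM, which the study used, was run as an alternative over all 20 label arrangements. Tested on simulated data for this comparison, over 18193 genes, limma found 53 of the 100 genes with a log2 change of 1, found 89 of the 100 with a change of 2, and made 9 false calls. The changed genes were picked at random, and the noise was drawn for each gene alone, without shifts shared by an array. These rates do not carry over to Adipoq, Retn and Cidec, whose differences had standard errors of 1.44, 0.85 and 0.87. The number of arrays limits the precision.

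The members and lists were chosen with earlier results of these data known. Named are all members, up to 3 genes of each fat metabolism list with the smallest p, all fasting-responsive muscle genes, and the 8 genes most like Adipoq. Amy1, Myh2, Lipe and Thrsp were picked after their values were seen. The alternatives comprised quantile normalization, array centring, a minimum mean of 5, other rules for probe sets, eBayes without trend or robust, a replicate block, omission of each array, SAM and the methods' t-test. Once the data had been seen, 2 more were added: omitting the arrays with the weakest 5′ Gapdh signal, and adjusting for Adipoq.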

Additional observations from a re-analysis of the deposited data

How the results depend on the processing

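None of the 8 measured adipocyte genes passed under any limma alternative, SAM or the methods' t-test, with or without Benjamini-Hochberg adjustment, and their median difference lay between -0.090 and 0.48. Signs of genes that did not pass changed as follows. With Adipoq as a covariate, the difference was -0.28 for Cidec, -0.090 for Scd1, -0.46 for Car3, -0.16 for Fmod, -0.14 for Ncln and -0.0055 for Sf3a2. With the probe set of largest spread it was -0.57 for Fabp4 and -0.054 for Sf3a2, and with the mean of all probe sets -0.21 for Fabp4 and 0.018 for Cpt1a. Without the 2 arrays of weakest 5′ Gapdh signal it was 0.20 for Lep and 0.20 for Amy1, and 4 members had groups that did not overlap. With arrays centred on their medians Lep had 0.026. Leaving out each array in turn gave -0.22 to 0.13 for Lep, -0.20 to 1.27 for Cidec, -0.22 to 0.42 for Scd1, -2.99 to 0.13 for Amy1, -0.51 to 1.85 for Car3, -0.10 to 0.90 for Fmod, -0.018 to 0.82 for Kcnc4, -1.58 to 0.97 for Myh2, -0.12 to 0.47 for Ncln, -0.054 to 0.56 for Sf3a2 and -0.79 to 0.085 for Thrsp.

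Counts over all genes depended more on the processing. Higher genes numbered 23, and 63 with centred arrays, 14 with the probe set of largest spread, 15 with the mean of all probe sets, 43 with robust eBayes, 4 without the 2 arrays of weakest 5′ Gapdh signal, 45 with Adipoq as a covariate, 83 by SAM, 1046 by the methods' t-test and 1 by it after Benjamini-Hochberg. Lower genes numbered 1, and 2 with centred arrays, 3 with dim genes left out, 2 without the intensity trend, 4 with robust eBayes, 0 without the 2 arrays of weakest 5′ Gapdh signal, 4 with Adipoq as a covariate, 0 by SAM and 654 by the methods' t-test. Leaving out each array gave 0 to 25 higher and 0 to 2 lower genes, with 0 higher without control 2 and 1 without 4NQO 2. With the replicate number as a block 2 genes were higher and 0 lower. The sample titles give same-numbered tongues a common replicate number and nothing more. Their deviations from the group means correlated at 0.29, -0.51 and 0.05. Deviations from a mean of 3 arrays sum to 0, so these values cannot show whether a batch was shared. Ucp3 passed under 9 of 16 alternatives (adjusted p = 0.00803 to 0.182 from limma). The causes were not tested.

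The normalization of the deposited values is not known, signals under the array medians carry no measured level, and 3 tongues per group leave wide intervals for genes that vary as Adipoq does.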

Other observations

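Amy1 and Myh2, which other tissues of the tongue make, also varied between animals of one group, in orders other than that of Adipoq. Whether the amount of these tissues varied was not tested. The mean of the skeletal muscle markers moved less than Myh2, from 11.7 to 12.4 in 4NQO and from 11.8 to 12.6 in control tongues. Amy1, salivary amylase, had log2 signals of 7.46, 6.25 and 12.50 in 4NQO tongues 1, 2 and 3, against 7.73, 11.83 and 9.97 in control tongues 1, 2 and 3. It was high in 4NQO 3 and control 2, which were also high in Adipoq, and low in 4NQO 1, which was highest in Adipoq. Myh2, the myosin heavy chain of oxidative fast fibres, had 8.49, 5.01 and 9.31 in 4NQO tongues, against 9.36, 9.01 and 5.43 in control tongues. It was low in 4NQO 2 and control 3, the arrays of weakest 5′ Gapdh signal, and high in control 1. Both genes were chosen after their values were seen, and neither passed limma's test between the groups (adjusted p = 0.838 for Amy1 and 0.948 for Myh2).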
